A study of Mus musculus with 4 samples.

Results

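The genes described here were 8 transcription factors of the myogenic network other than Pax7, Myf5, Myod1 and Myog. They were the MEF2 family genes Mef2a, Mef2c and Mef2d, the myogenic regulatory factor Myf6, the paired-box gene Pax3, and the E-protein genes Tcf12, Tcf4 and Tcf3, which encode partners of the myogenic factors. Each was found by its gene symbol among the 19353 genes with counts, and all 8 were present. Of these, 6 had enough counts to be tested, and Myf6 and Pax3 did not.

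The libraries held muscle stem cells (MuSCs), the resident stem cells of skeletal muscle, from the plantaris muscle of Pax7-CreERT2:Rosa-YFP mice. In these mice tamoxifen activates a Cre recombinase made under the control of Pax7, and the recombinase permanently switches on yellow fluorescent protein (YFP), so that the sort collected cells that had expressed Pax7 at labelling together with any descendants that kept the mark. The study compared sham-operated muscle, in which the skin was cut and the tendons were left intact, with overloaded muscle at 4 days after tenotomy, in which the distal tendons of the gastrocnemius and soleus were cut and the plantaris carried their load. There were 2 libraries per group, each made by CEL-Seq2 from a tube of 100 YFP-sorted cells. All mice carried the same alleles, and their age and sex are not given in the sources used here. Whether the 2 tubes of a group were filled from separate mice is not said in the labels, so that p-values measure only the spread between these samples.

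In CEL-Seq2 each transcript is primed at its poly(A) tail and tagged with a unique molecular identifier (UMI) before amplification. A UMI therefore stands for 1 captured molecule, and counts were not divided by gene length. In total 269683 and 260488 UMIs were counted in sham replicates 1 and 2, and 387955 and 483528 in tenotomy replicates 1 and 2. From each sham cell 2697 and 2605 UMIs were counted on average, and from each tenotomy cell 3880 and 4835. Levels are given as CPM, the counts scaled to a common library total, after TMM scaling, which sets the libraries to a common middle of the fold changes. A count of 3 corresponded to 13.1 and 13.6 CPM in the sham libraries and to 7.80 and 6.08 CPM in the tenotomy libraries. Because each library was a pool of cells, fewer cells that express a gene and less RNA per cell cannot be told apart.

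MEF2 proteins are MADS-box transcription factors that bind A/T-rich sites in the promoters of muscle genes and act there together with the myogenic regulatory factors (MRFs) MyoD, Myf5, myogenin and Myf6. The MRFs are basic helix-loop-helix (bHLH) proteins that bind the E-box, a short DNA motif, as heterodimers with E proteins. Id proteins take E proteins away from the MRFs, and class IIa histone deacetylases (HDACs) bind MEF2 and repress its targets. Pax3 is the paralog of Pax7 and acts upstream of the MRFs in the embryonic limb and in some adult MuSCs.

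Among the 6 genes tested, Mef2a, Mef2c and Tcf12 were higher after tenotomy and Mef2d and Tcf3 did not pass the threshold. Tcf4 was lower at an equal scaling of the libraries, but not in UMIs per tube or with offsets for abundance. The threshold was an adjusted p of 0.1 in the quasi-likelihood test of edgeR, adjusted by Benjamini-Hochberg over 7228 genes, to which all adjusted p-values below refer unless DESeq2 is named. Of all genes tested, 25.8% were higher and 26.3% were lower at this threshold, so that a change of 1 gene in either direction was common in these libraries. Both tenotomy libraries lay above both sham libraries in 37.5% of the genes and below both in 35.4%.

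**Figure D1:**
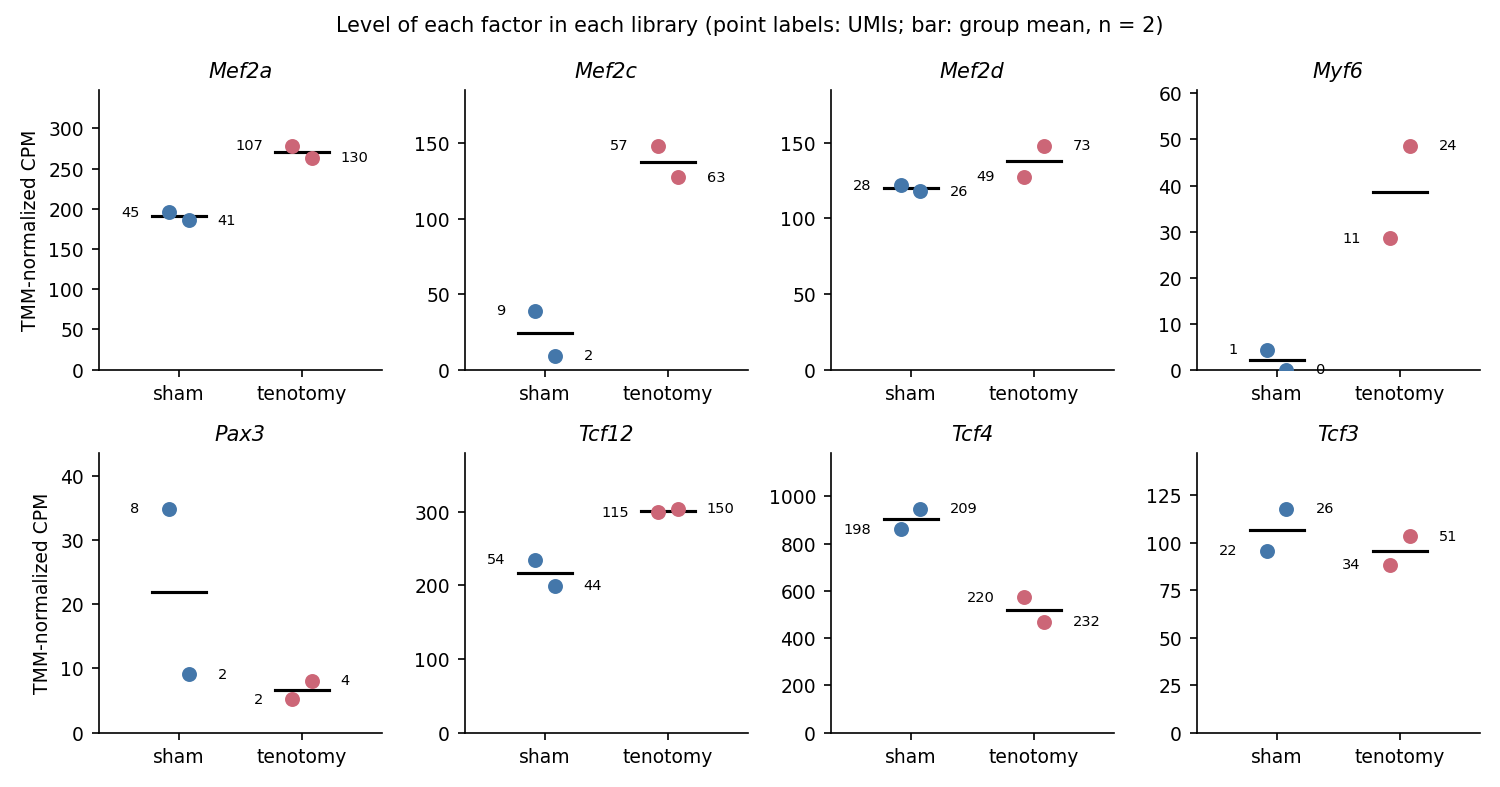
TMM-normalized CPM of the 8 genes in each of the 4 libraries, 1 panel per gene with its own linear axis from 0, points labelled with their UMIs and bars at the group mean (n = 2). The groups overlap only for Tcf3, and Mef2c and Myf6 rest on at most 9 and 1 UMIs in a sham library.

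The MEF2 genes were described first. Mef2a lies on the minus strand of chromosome 7 (GRCm38, chr7:67231163-67372858), Mef2c on the plus strand of chromosome 13 (chr13:83504034-83667080) and Mef2d on the plus strand of chromosome 3 (chr3:88142372-88172086). The promoters of the MEF2 genes that were called higher are shown because E-boxes and MEF2 sites are the motifs that the factors described here read. The RefSeq promoter table (GRCm38.p6) gives 1 start for Mef2a and Mef2d and 3 for Mef2c. In each, 250 bases before the start and 50 after it were searched on both strands for the E-box CANNTG and for the consensus MEF2 motif. Printed 5′ to 3′ on the strand of the gene are 260 bases, 250 before the start and 10 from it on, of Mef2a (chr7:67372849-67373108) and of Mef2c at its first (chr13:83503784-83504043) and last start (chr13:83573357-83573616), with motif matches in capitals.
Mef2a: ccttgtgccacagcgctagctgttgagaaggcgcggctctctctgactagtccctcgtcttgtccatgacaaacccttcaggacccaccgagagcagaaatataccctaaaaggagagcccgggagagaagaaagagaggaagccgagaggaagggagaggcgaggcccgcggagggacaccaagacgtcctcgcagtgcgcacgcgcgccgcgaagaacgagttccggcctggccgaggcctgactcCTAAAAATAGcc
Mef2c first start: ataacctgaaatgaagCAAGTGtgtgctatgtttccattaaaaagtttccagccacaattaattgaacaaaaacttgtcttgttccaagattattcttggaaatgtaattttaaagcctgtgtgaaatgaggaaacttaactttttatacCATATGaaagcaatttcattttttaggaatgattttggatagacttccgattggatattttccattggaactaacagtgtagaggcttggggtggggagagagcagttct
Mef2c last start: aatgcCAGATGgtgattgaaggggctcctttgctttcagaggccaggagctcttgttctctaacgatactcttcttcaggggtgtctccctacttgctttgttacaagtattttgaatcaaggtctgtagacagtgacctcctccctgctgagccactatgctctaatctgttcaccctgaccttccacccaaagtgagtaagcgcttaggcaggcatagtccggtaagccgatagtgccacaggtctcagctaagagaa
The Mef2a stretch held 1 match to the MEF2 motif, CTAAAAATAG, which begins at position -2 and runs across the start, and no E-box. A match to this motif was present in 3.19% of the 32851 promoters of the table. The first start of Mef2c had the E-boxes CAAGTG at -234 and CATATG at -100, and its last start had CAGATG at -245. An E-box was present in 72.3% of all promoters, so that its presence does not set Mef2c apart. Neither motif was found in the window at the middle start of Mef2c or in that of Mef2d. The 3 starts of Tcf12 in the table, whose sequences are not shown, had 1, 2 and 1 E-boxes and no MEF2 motif. A match describes the letters only, and binding was not measured.

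Mef2c, the MEF2 gene that in muscle is known for its part in sarcomere gene expression, was the member with the largest rise among those tested. It had 9 and 2 UMIs in the sham libraries and 57 and 63 in the tenotomy libraries. These counts were 39.2 and 9.06 CPM in sham and 148 and 128 CPM after tenotomy. Both tenotomy libraries stood far above both sham libraries, and the sham libraries differed from each other by more than the tenotomy libraries did. The mean rose by 2.47 ± 0.41 (SE) on the log2 scale, from 24.1 ± 21.3 to 138 ± 14.6 CPM (SD, n = 2 per group), with a 95% confidence interval of 1.60 to 3.34 and an edgeR adjusted p of 0.00015. The gene met the filter on low counts in both tenotomy libraries but in only 1 sham library. Without sham replicate 1 the log2 fold change was 3.84, and without sham replicate 2 it was 1.76. Mef2c was called higher under each scaling tried, in DESeq2 and with each library left out.

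Mef2c is also transcribed in leukocytes and endothelial cells, whose markers were therefore counted. The 12 leukocyte markers summed to 3 and 6 UMIs in the sham libraries and to 65 and 145 after tenotomy. The 8 endothelial markers summed to 11 and 4 UMIs in sham, and to 45 and 44 after tenotomy. The part of such cells in the Mef2c counts was not tested.

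Mef2a had 45 and 41 UMIs in the sham libraries and 107 and 130 in the tenotomy libraries. The levels were 196 and 186 CPM in sham and 278 and 263 CPM after tenotomy, with no overlap of the groups. The mean rose by 0.50 ± 0.19 on the log2 scale, from 191 ± 7.17 to 271 ± 10.6 CPM (SD, n = 2 per group, SE of the fold change, 95% confidence interval 0.10 to 0.90, edgeR adjusted p = 0.040). The call was lost without sham replicate 1 (edgeR adjusted p = 0.19), without sham replicate 2 (0.28) and in DESeq2 (adjusted p = 0.26), where the log2 fold changes were 0.51, 0.42 and 0.51. Over most of its 3′ part Mef2a overlaps Lysmd4 on the opposite strand, and the strand setting of the counting is not given in the sources used here. Lysmd4 was given 14 UMIs in the 4 libraries together.

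Mef2d had 28 and 26 UMIs in the sham libraries and 49 and 73 in the tenotomy libraries. Its levels of 122 and 118 CPM in sham and 127 and 148 CPM after tenotomy did not overlap, but the gap was small. The log2 fold change was 0.21 with a 95% confidence interval of -0.30 to 0.71 (edgeR adjusted p = 0.51), so that neither a slight fall nor a rise of the size seen for Mef2a was outside the interval. In UMIs per tube, where the median gene rose by 1.01 on the log2 scale, Mef2d rose by 1.17 (edgeR adjusted p = 0.0072), which is 0.16 above that median.

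The shares of the 3 genes in their summed UMIs do not depend on a scaling of each library as a whole. Offsets for abundance, which differ between genes, were not applied to the shares. Mef2c made up 11.0% (95% Clopper-Pearson interval 5.14 to 19.8) and 2.90% (0.353 to 10.1) of the MEF2 UMIs in the sham libraries. After tenotomy it made up 26.8% (20.9 to 33.2) and 23.7% (18.7 to 29.3). Counting error alone is covered by these intervals. The share of Mef2c was 18.3 percentage points higher after tenotomy, while that of Mef2d was lower by 10.7 points and that of Mef2a by 7.60. Mef2a went from 54.9% and 59.4% to 50.2% and 48.9%, and stayed the most counted MEF2 gene in every library. With 2 libraries per group an exact two-sided permutation test cannot give a p below 0.333, and it gave 0.333 for each of the 3 shares. No stretch of 30 bases was shared between the annotated transcripts of the 3 genes, so that reads of this length could be told apart.

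**Figure D2:**
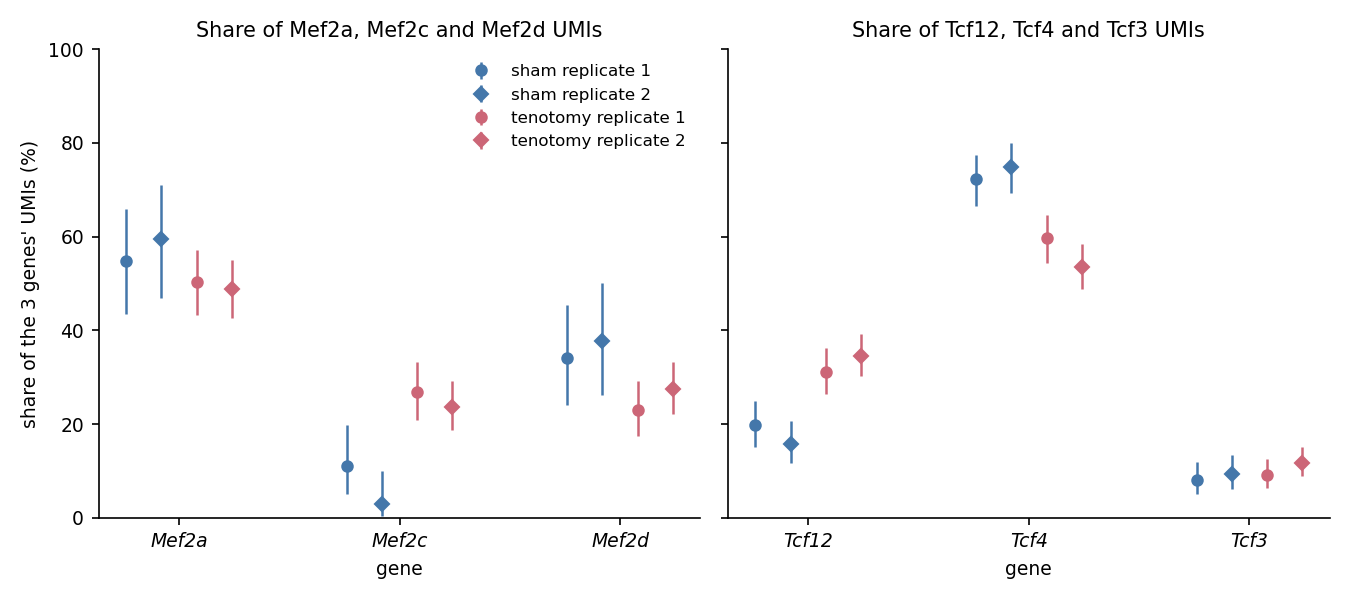
Share (%, linear axis) of each gene in the summed UMIs of Mef2a, Mef2c and Mef2d (left) and of Tcf12, Tcf4 and Tcf3 (right) in each library, with 95% Clopper-Pearson intervals as bars. Mef2c and Tcf12 have larger shares in both tenotomy libraries, and Tcf4 goes from 72.3% and 74.9% to 59.6% and 53.6%.

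The E proteins are broadly expressed class I bHLH factors, and Tcf4 and Tcf3 here are these factors and not the Wnt effectors Tcf7l2 and Tcf7l1 that share their older names. Tcf12 lies on the minus strand of chromosome 9 (chr9:71842688-72111871) and Tcf3 on the minus strand of chromosome 10 (chr10:80409514-80433647).

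Tcf12, the E protein also called HEB, had 54 and 44 UMIs in the sham libraries and 115 and 150 in the tenotomy libraries. The levels were 235 and 199 CPM in sham and 299 and 304 CPM after tenotomy, and the groups did not overlap. The mean rose by 0.47 ± 0.19 on the log2 scale, from 217 ± 25.3 to 301 ± 3.36 CPM (SD, n = 2 per group, SE of the fold change, 95% confidence interval 0.080 to 0.86, edgeR adjusted p = 0.048). As with Mef2a, the call was lost without sham replicate 1 (edgeR adjusted p = 0.14), without sham replicate 2 (0.42) and in DESeq2 (adjusted p = 0.27), at log2 fold changes of 0.56, 0.32 and 0.48. Both genes kept their call under each scaling tried. In UMIs per tube, where 62% of all genes tested were higher, Mef2a was 0.45 and Tcf12 0.42 above the median gene. Short unconfirmed genes inside the introns of Tcf12 held few UMIs, at most 19 in the 4 libraries together.

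Tcf4 was the most counted of the 8 genes in every library. It had 198 and 209 UMIs in the sham libraries and 220 and 232 in the tenotomy libraries, so that the count per tube of 100 cells was almost level. Relative to the larger tenotomy libraries, its level went from 862 and 947 CPM to 572 and 470 CPM. The group means were 904 ± 60.0 and 521 ± 72.3 CPM (SD, n = 2 per group), and the log2 fold change was -0.80 ± 0.16 (SE, 95% confidence interval -1.15 to -0.46, edgeR adjusted p = 0.00085). The sign turned in UMIs per tube, at 0.15 (edgeR adjusted p = 0.41), which is 0.86 below the median gene of that scaling. It also turned with offsets fitted to each library so that fold changes no longer followed abundance, at 0.072 (edgeR adjusted p = 0.71). Abundant genes were generally lower in these data. Among the 723 genes with the highest mean counts, which include Tcf4, the median log2 fold change was -0.73 and 87.6% of the genes were lower, whereas among the 723 with the lowest mean counts the median was 1.54. The lower level of Tcf4 was thus close to that of genes of like abundance.

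**Figure D3:**
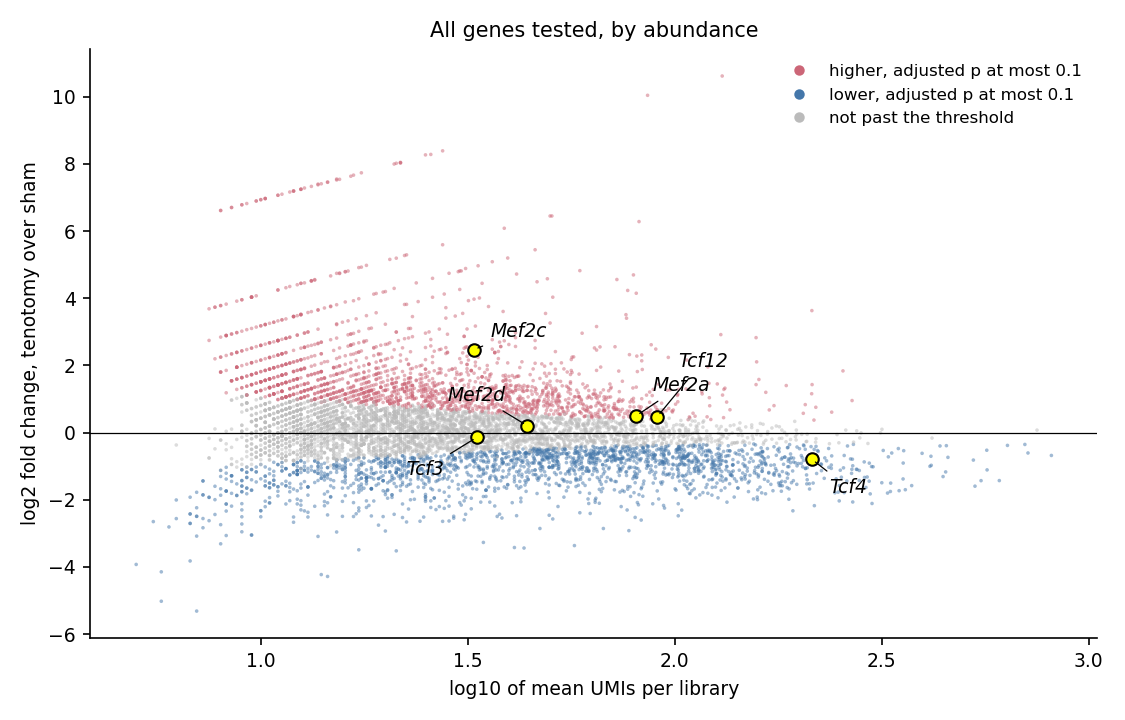
Fitted log2 fold change (tenotomy over sham) of the 7228 genes tested against the log10 of their mean UMIs per library, coloured by call at an adjusted p of 0.1, with the 6 tested factors in yellow. Values fall toward the right, where Tcf4 sits, and the streaks at the upper left are genes with few or no sham UMIs, whose fitted values depend on the prior count.

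Tcf3 had 22 and 26 UMIs in the sham libraries and 34 and 51 in the tenotomy libraries. The levels of 95.8 and 118 CPM in sham and 88.4 and 103 CPM after tenotomy overlapped. The log2 fold change was -0.14 (95% confidence interval -0.72 to 0.43, edgeR adjusted p = 0.70). It was 0.13 with library sizes alone and 0.82 in UMIs per tube (edgeR adjusted p = 0.060), which is 0.19 below the median gene there.

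Within the E proteins, Tcf12 made up 19.7% (15.2 to 24.9) and 15.8% (11.7 to 20.6) of the summed UMIs in the sham libraries. After tenotomy it made up 31.2% (26.5 to 36.2) and 34.6% (30.2 to 39.3), which is a gain of 15.2 percentage points. The share of Tcf4 was 17.0 points lower after tenotomy, at 59.6% and 53.6% against 72.3% and 74.9% in sham. The share of Tcf3 lay between 8.03% and 11.8% in all 4 libraries. For each UMI of Tcf4 there were 0.273 and 0.211 UMIs of Tcf12 in sham and 0.523 and 0.647 after tenotomy, and the groups did not overlap. The exact two-sided permutation test gave 0.333 for Tcf12 and Tcf4, the smallest p it can give here, and 0.667 for Tcf3. Each of the 6 shares kept the direction of its difference with any 1 library left out. This was fixed in advance where the groups did not overlap, which was so for all but Tcf3. The difference of Tcf3 was 1.82 points with all libraries and 0.54 without tenotomy replicate 2. Of the 30-base stretches of the annotated Tcf12 transcripts, 6 of 15830 were shared with those of Tcf4 and 4 with those of Pax3. Of those of Pax3, 30 of 6180 were shared with Tcf4, and no other pair of the 8 genes shared any.

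**Figure D4:**
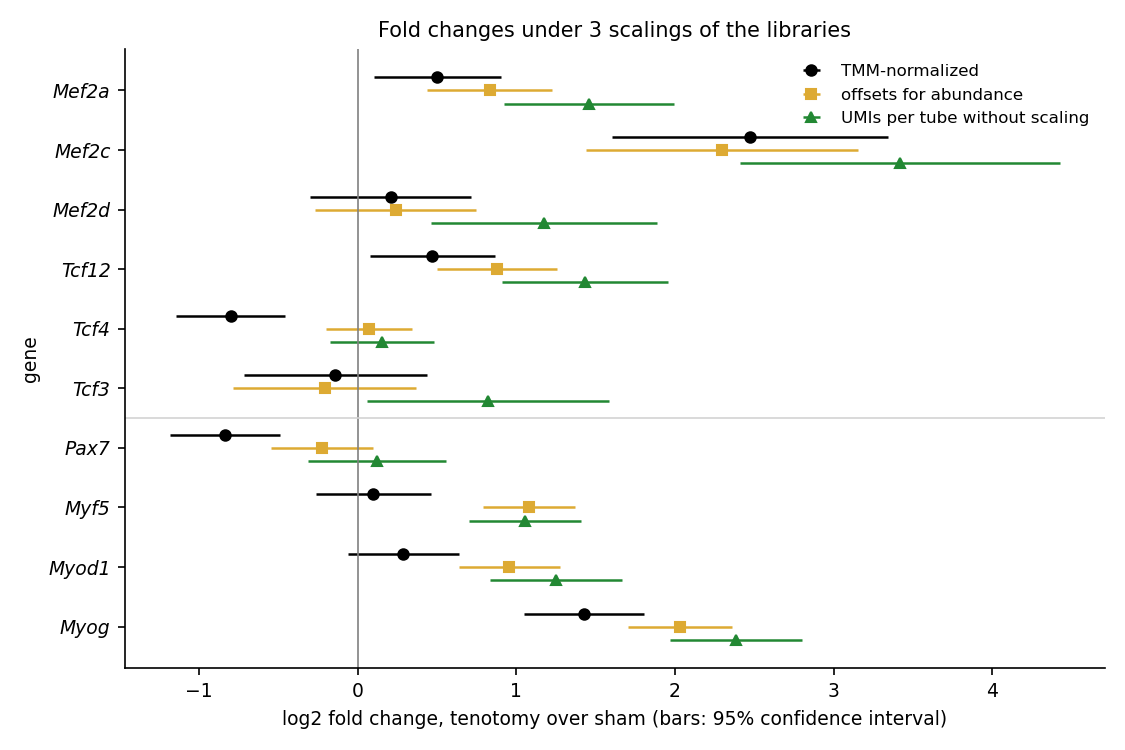
Log2 fold changes (tenotomy over sham) with 95% confidence intervals of the 6 tested factors and of Pax7, Myf5, Myod1 and Myog under 3 scalings of the libraries. Mef2a, Mef2c and Tcf12 lie above 0 under all 3, while Tcf4 lies below 0 with TMM scaling (-0.80) and near 0 with offsets for abundance (0.072) and in UMIs per tube (0.15).

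Myf6, also called MRF4, is the MRF that is mainly known from late differentiation and from mature myofibers. It lies on the minus strand of chromosome 10 (chr10:107492853-107494737) in 3 exons, 6718 bases from its neighbour Myf5. It had 1 and 0 UMIs in the sham libraries and 11 and 24 in the tenotomy libraries, that is 4.35 and 0 CPM against 28.6 and 48.6 CPM. The groups did not overlap, and the sham counts were below the level that 3 counts correspond to. Myf6 did not pass the filter on low counts, since only 1 tenotomy library reached it. The ratio of the summed UMIs, corrected for library size, was 17.9 with an exact binomial interval of 3.02 to 729 that covers counting error only. The 1 sham UMI was in replicate 1, so that the ratio has no value without that library other than a bound. Without sham replicate 2 the fitted log2 fold change was 3.05, against 4.01 with all libraries and no filter. With no filter on low counts Myf6 was called higher (edgeR adjusted p = 6.5e-05), and DESeq2, which tested it, gave an adjusted p of 0.067. With 1 and 0 UMIs in the sham libraries, a call for Myf6 could only be higher.

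Genes used as myofiber markers, some of which are also targets of MRFs and MEF2 in differentiating cells, were counted in all libraries. The 9 with counts summed to 264 and 139 UMIs in the sham libraries and to 804 and 906 after tenotomy, led by the fast troponin gene Tnnt3. Of the 5 that were tested all were higher, beside 25.8% of all genes, among them the fast myosin gene Myh4 (10, 5, 145 and 79 UMIs), with a log2 fold change of 2.96 (edgeR adjusted p = 8.8e-05), while Myh1 and Myh2 were at 0 in both sham libraries and had 0 and 2 UMIs after tenotomy. In CPM the marker sum was 1149 and 630 in sham and 2090 and 1835 after tenotomy. Sham replicate 1 had more of these markers, of Mef2c and of Myf6 (1 UMI against 0) than sham replicate 2. Of the other members, Pax3, Tcf12, Mef2a and Mef2d were also higher there in CPM, and Tcf4 and Tcf3 were lower. In CPM, tenotomy replicate 2 had less of the markers and of Mef2c (128 against 148) than tenotomy replicate 1, but more of Myf6. RNA from myofibers and expression within the sorted cells cannot be told apart here, and the part of myofiber RNA in these genes was not tested.

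Pax3 lies on the minus strand of chromosome 1 (chr1:78101267-78197134). It had 8 and 2 UMIs in the sham libraries and 2 and 4 in the tenotomy libraries, that is 34.8 and 9.06 CPM against 5.20 and 8.10 CPM. Sham replicate 1 held 8 of the 10 sham UMIs, and sham replicate 2 was at about the level of the tenotomy libraries. The ratio of the summed UMIs was 0.308 (exact binomial interval 0.0919 to 0.934, counting error only) and 0.754 without sham replicate 1. Pax3 did not reach the filter in any library, and with no filter it was not called (edgeR adjusted p = 0.15, DESeq2 adjusted p = 0.37). A difference in Pax3 was therefore not established, with few counts and sham libraries that differed from each other.

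The order of the levels, in CPM of UMIs, 1 per molecule captured, began in sham with Tcf4 (904 CPM), Tcf12 (217) and Mef2a (191). Mef2d (120) and Tcf3 (107) followed and overlapped in sham, as did Mef2c (24.1) and Pax3 (21.9), and Myf6 (2.18) was last. After tenotomy Mef2c had moved up to the level of Mef2d, with means of 138 CPM each, and stood above Tcf3 (95.8). Tcf4, Tcf12 and Mef2a kept the first ranks, and Tcf12 (301) and Mef2a (271) stood farther apart than their libraries did. Summed over the 8 genes, the level with TMM scaling was nearly the same in all libraries, at 1589 and 1586 CPM in sham and 1547 and 1472 after tenotomy. Without scaling, the sums were 365 and 350 UMIs in sham tubes and 595 and 727 in tenotomy tubes. Tcf4 was the largest part of each sum.

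For each tested factor, the genes with the most similar profile over the 4 libraries were found from the distance of their centred log2 CPM, a description in which many genes are near when a change is small. Nearest to Mef2c were Lig1, the DNA ligase that joins newly replicated strands, at a distance of 0.096, and the bHLH repressor Bhlhe41 at 0.17. Only 26 genes lay within 0.5 of Mef2c. Between 1213 and 1546 genes lay within that distance of each of the other factors. The nearest were Cenpb and Foxk1 for Mef2a, Pak4 and Cpne3 for Mef2d, Tia1 and Tmed4 for Tcf12, Slc11a2 and Zranb1 for Tcf4, and Vmn2r110 and Copg1 for Tcf3.

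The genes around these factors were read from fixed lists. The core myogenic factors served as a reference. Myog, which drives the entry into differentiation, rose by 1.43 on the log2 scale (edgeR adjusted p = 1e-05), and Pax7 was lower at -0.84 (edgeR adjusted p = 6.4e-04). In UMIs per tube Pax7 was at 0.12 and not called, which is 0.89 below the median gene of that scaling. With offsets for abundance Pax7 was not called either (-0.23, edgeR adjusted p = 0.27). Myf5 at 0.10 (edgeR adjusted p = 0.67) and Myod1 at 0.29 (0.17) did not pass, and both were called higher in UMIs per tube, with library sizes alone and with offsets for abundance. Of 10 satellite cell markers tested, 2 were higher and 6 were lower with TMM scaling, beside 25.8% higher and 26.3% lower over all genes, with a median log2 fold change of -0.87 against 0.051 for all genes tested. In UMIs per tube 4 of the 10 were higher and 3 were lower, where 62% of all genes tested were higher and 4.58% lower. With offsets for abundance 4 were higher and 3 were lower, against 21.3% higher and 21.8% lower over all genes. Pax7 itself was read at 499 CPM in sham and 279 CPM after tenotomy, so that the sorted cells carried the defining marker of MuSCs in both groups.

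The list of MEF2 regulators was called at about the rate of all genes. Of 13 genes tested of 18, 3 were higher, 3 were lower and 7 did not pass, with a median of -0.12, beside 25.8% higher and 26.3% lower over all genes tested. Akap6 and Hdac7 lay below the filter on low counts in both sham libraries and were tested only through the tenotomy libraries, so that a call for them could only be higher. Of the other 11, 1 was higher and 3 were lower. Among the 5931 genes of all that reached the filter in at least 1 library of each group, 16.8% were higher and 28.8% lower. Akap6, which anchors signalling enzymes at the nuclear envelope of muscle cells, had 0 and 2 UMIs in sham, and 21 in each tenotomy library, a ratio of 10.8 (exact binomial interval 2.80 to 91.8). The fitted log2 fold change of 3.33 was 2.33 without sham replicate 1, and no sham UMI remained without sham replicate 2. Its call was lost with offsets for abundance (edgeR adjusted p = 0.32). Hdac7, a class IIa HDAC, rose by 1.71 (4, 5, 27 and 31 UMIs, edgeR adjusted p = 0.0052), and the calcium-dependent kinase gene Camk2g rose by 1.34 (edgeR adjusted p = 0.0025). In contrast, Hdac4, another class IIa HDAC, had 59 and 58 UMIs in sham tubes and 53 and 56 in tenotomy tubes, which is a log2 fold change of -1.06 (edgeR adjusted p = 5.8e-04). Hdac4 was not called in UMIs per tube, at -0.10. Sik1, a kinase that phosphorylates class IIa HDACs, was at -1.05 (edgeR adjusted p = 1.4e-04), and the call was absent in UMIs per tube and with offsets for abundance. The co-repressor gene Ski was at -0.58 (edgeR adjusted p = 0.010) and lost its call in DESeq2 and with each other scaling but DESeq2 size factors.

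Among the genes listed as inhibitors and competitors of bHLH factors, 9 of 15 tested were lower, 2 were higher and 4 did not pass, with a median of -0.49, beside 26.3% lower and 25.8% higher over all genes. Id3, an Id protein, had 241 and 209 UMIs in sham tubes and 147 and 177 in tenotomy tubes, and fell by 1.43 on the log2 scale (edgeR adjusted p = 2.9e-06). Id4 fell by 1.67 (23, 23, 11 and 17 UMIs, edgeR adjusted p = 9.3e-04), though it was not called in UMIs per tube (edgeR adjusted p = 0.15). Msc, which encodes musculin, a bHLH repressor that pairs with E proteins, fell by 1.38 (edgeR adjusted p = 5.7e-06). With offsets for abundance Id3 was at -0.60 and Msc at -0.68, and in UMIs per tube at -0.47 and -0.42, and both kept their call. Id1 at 0.40 (edgeR adjusted p = 0.11) and Id2 at 0.057 (0.83) did not pass. The genes that rose were Hes6, a bHLH factor that counteracts Hes1, with 47 and 59 UMIs after tenotomy against 4 and 3 in sham (log2 fold change 2.93, edgeR adjusted p = 3.5e-05), and Bhlhe41, which had 16 and 5 against 113 and 122 (2.52, edgeR adjusted p = 8.9e-06). Hes6 was below the filter in both sham libraries and tested only through the tenotomy libraries. Leaving out sham replicate 1 gave Bhlhe41 a log2 fold change of 3.52, and leaving out sham replicate 2 gave 1.90. With offsets for abundance 5 of 15 were lower and 4 were higher, beside 21.8% lower and 21.3% higher over all genes. In DESeq2 5 of 15 were lower and 2 were higher, beside 11.7% lower and 9.34% higher of 10348 genes. In UMIs per tube 2 were lower, beside 4.58% of all genes.

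Of the homeodomain, EYA, TEAD and chromatin cofactors, 22 of 26 were tested, 6 were higher and 3 were lower, with a median of 0.042, beside 25.8% higher and 26.3% lower over all genes. Tead4 and Eya3 were below the filter in both sham libraries and tested only through the tenotomy libraries. Tead4, a factor that binds muscle promoters beside MEF2, had 0 and 2 UMIs in sham tubes and 17 and 31 in tenotomy tubes, a ratio of 12.3 (exact binomial interval 3.23 to 105). Its fitted log2 fold change of 3.51 was 2.51 without sham replicate 1, and no sham UMI remained without sham replicate 2. Its call was lost with offsets for abundance (edgeR adjusted p = 0.19). Eya3, a coactivator of homeodomain factors, rose by 1.79 (edgeR adjusted p = 0.0065) and lost its call without tenotomy replicate 2 (0.18). Six2 rose by 1.07 (edgeR adjusted p = 0.070), a call lost in DESeq2 (adjusted p = 0.34), with offsets for abundance (edgeR adjusted p = 0.23), at a threshold of 0.05, without sham replicate 1 and without tenotomy replicate 2. The acetyltransferase genes Crebbp at -0.95 (edgeR adjusted p = 6.5e-04) and Ep300 at -0.74 (0.011) were lower with TMM scaling. Crebbp was not called with offsets for abundance, at -0.35, and Ep300 was not called in DESeq2 (adjusted p = 0.14). In UMIs per tube Ep300 was at 0.22 and Crebbp was at -0.0062.

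Of the muscle genes known as targets of MRFs and MEF2, 34 of 40 were tested. Of these, 16 were below the filter on low counts in both sham libraries, so that they were tested only through the tenotomy libraries and could be called only higher, and all 16 were. Of the other 18, which reached the filter in at least 1 library of each group, 13 were higher, 1 was lower and 4 did not pass, beside 16.8% higher and 28.8% lower among the 5931 genes of all that did so. The median log2 fold change over the 34 was 2.61, also with the 5 genes that had no sham UMI set to their lower bound, and it carries the same limit. The summed level of the list was 6146 and 4911 CPM in sham and 10936 and 11411 CPM after tenotomy. Tnnt2, the cardiac and embryonic troponin T gene, had 0 UMIs in both sham libraries and 213 and 308 after tenotomy, and was at least 89.1-fold higher, with 3 counts over the sham group taken as its floor. Tnnc1, the slow troponin C gene, and Casq2, a calcium store protein gene, were each at least 14.9-fold higher. Cdkn1a, the cell cycle inhibitor gene and the most counted gene of the list, was at -0.71 (389, 369, 397 and 509 UMIs, edgeR adjusted p = 0.0014), but at 0.39 with offsets for abundance (edgeR adjusted p = 0.015). Of the 7 PAX3 and PAX7 target genes tested, 1 was higher and 2 were lower, with a median of -0.27, which is about the rate of all genes (25.8% higher, 26.3% lower). Met, the receptor of hepatocyte growth factor, rose by 1.03 (edgeR adjusted p = 0.0027), Plagl1 was at -1.44 (1.2e-05) and Fgfr4 at -0.80 (0.0013), and neither of the last 2 was called in UMIs per tube. With offsets for abundance Plagl1 was called, at -1.02, and Fgfr4 was not, at -0.20 (edgeR adjusted p = 0.34).

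**Figure D5:**
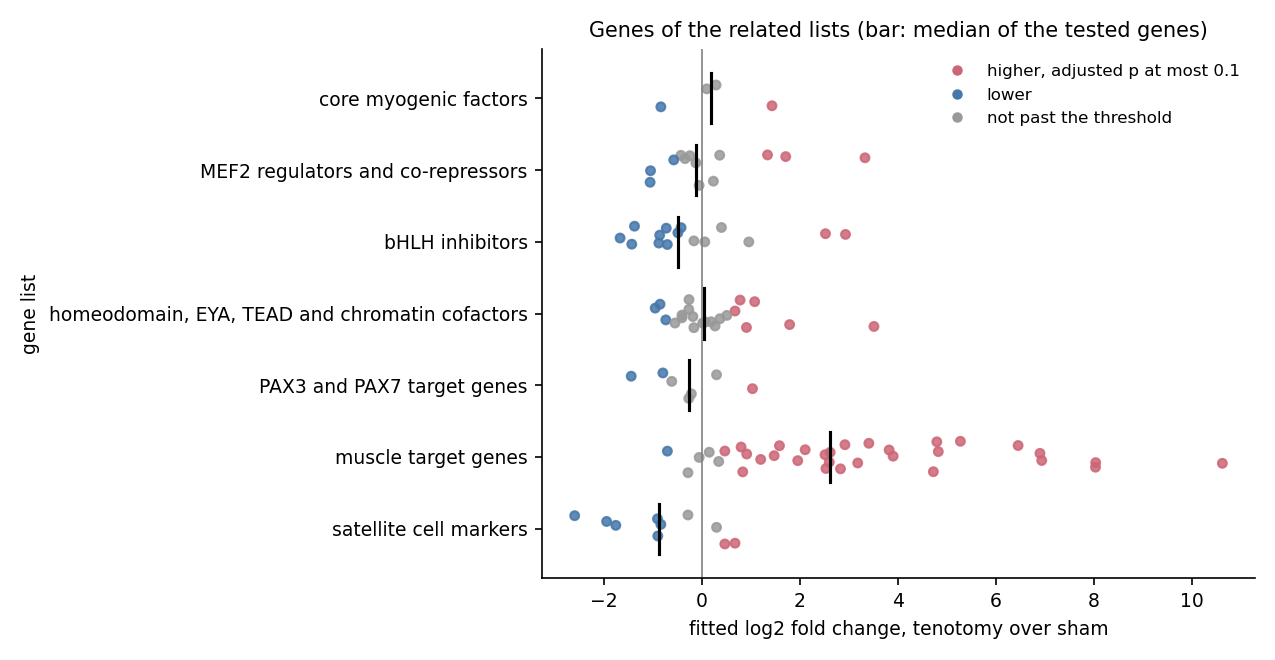
Fitted log2 fold change (tenotomy over sham) of each tested gene of 7 lists, coloured by call at an adjusted p of 0.1, with black bars at the list medians. Muscle target genes, 16 of which were tested only through the tenotomy libraries, have a median of 2.61 and bHLH inhibitors of -0.49, and points beyond about 6 are genes with no or hardly any sham UMIs.

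Of the markers of other cell types, those of leukocytes and endothelial cells were sparse. The fibro-adipogenic and mural cell lists held abundant genes, such as Col3a1 and Acta2. Counts of calls in all these lists stand beside 25.8% higher and 26.3% lower over all genes tested. Of the leukocyte markers, 8 were at 0 in both sham libraries and the most counted was Lyz2, with 17 and 38 UMIs after tenotomy, while the pan-leukocyte gene Ptprc had 0, 1, 1 and 4 UMIs. Lyz2 and Cd74 (17 and 27 UMIs after tenotomy) were at 0 in sham and passed the filter only through the tenotomy libraries, so that their calls as higher add nothing to the counts. None of the 8 endothelial markers passed the filter on low counts used with edgeR, and DESeq2 tested 2 and called 0 of them. Cdh5 was the most counted, with 3, 1, 14 and 11 UMIs, while Cldn5 and Egfl7 were at 0 in sham. Of 5 fibro-adipogenic markers tested, 3 were lower and 1 was higher, Ly6a, which passed the filter only through the tenotomy libraries, the most counted was Col3a1, and the defining gene Pdgfra had 2 UMIs in tenotomy replicate 1 and 0 in the other libraries. The list summed to 940 and 867 UMIs in sham tubes and 1221 and 1359 in tenotomy tubes. Of 4 mural cell markers tested, 2 were higher and 1 was lower. The list summed to 181 and 161 UMIs in sham tubes and 478 and 694 in tenotomy tubes, led by Acta2, and Myh11 was at 0 in sham. The part of these cells in the levels of the E proteins and MEF2 genes, which they also express, was not tested.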

How the data were processed

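The authors extracted barcodes and UMIs with UMI-tools (version 1.0.0), aligned the reads to GRCm38 with HISAT2 (version 2.1.0), assigned them to genes with featureCounts (version 1.6.4) and collapsed the UMIs of each gene. The deposited values are these UMI counts, 1 per gene and library, and were not normalized. The annotation release and the strand setting are not given in the sources used here. Every column of counts matched a labelled sample. Of 19353 gene identifiers, all matched the GRCm38 annotation used here.

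Counts were scaled by TMM and filtered by filterByExpr (minimum count 10, minimum total 15) with edgeR version 4.0.16 in R version 4.3.3. The 7228 genes kept were tested with glmQLFit and glmQLFTest at an adjusted p of 0.1, the threshold of the study. The prior count of fitted values was 0.125. At an unadjusted p of 0.05, 3732 genes passed. Chi-square per degree of freedom was 1.31 within sham, 1.50 within tenotomy and at least 6.36 between groups, and the libraries of a group were used as 2 samples, which does not say that they are from separate mice. The fit was tested on simulated data, and no result of that test is used here. DESeq2 (version 1.42.0), other scalings (library sizes alone, DESeq2 size factors, UMIs per tube, loess offsets for abundance with a span of 0.3), no filter, an adjusted p of 0.05, a replicate block and each library left out were alternatives. They were planned for the 8 genes, and their use on the list genes was added after seeing the data. Figures used Python (version 3.11.15) and matplotlib (version 3.10.9).

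The 8 genes and all lists were chosen with earlier results of these data known. Named were all 8, Pax7, Myf5, Myod1 and Myog, up to 3 genes with the largest and up to 3 with the smallest fold change of each list among those called, if they averaged at least 10 UMIs a library, the most counted gene and genes at 0 of the cell type lists, and the 2 nearest profiles. Results of some genes under this rule are not reported here. Id1, Id2, Myh4, Cd74, Ly6a and Ptprc were named after their values were seen.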

Additional observations from a re-analysis of the deposited data

How the results depend on the processing

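DESeq2 size factors, no filter and an adjusted p of 0.05 changed no direction and no call among the 6 tested factors. Over all genes, 4481 were higher and 331 lower in UMIs per tube, and 967 were higher and 1215 lower in DESeq2, against 1868 and 1898 with TMM. Called genes were higher in 49.6% with TMM, 66.6% with library sizes alone, where the median gene was at 0.33, and 93.1% in UMIs per tube. Of the factors, 5 were higher and 0 lower in UMIs per tube, and 0 were lower with offsets for abundance. DESeq2 called 2 higher, Mef2c and Myf6, of which Myf6 had too few sham UMIs for any other call. In UMIs per tube the sign turned for Tcf4 (0.15), Tcf3 (0.82), Pax7 (0.12), Ski (0.38), Ep300 (0.22), Cdkn1a (0.26) and Fgfr4 (0.16). It turned for Tcf3 with library sizes alone (0.13), for Tcf4 (0.072) and Cdkn1a (0.39) with offsets for abundance, and for Myf5 without sham replicate 2 (-0.16, highest 0.33 with a library left out). By construction, UMIs per tube leave the difference in library totals in the fold change, and the offsets take out its trend with abundance. With a library left out, the log2 fold change was 1.76 to 3.84 for Mef2c, 0.42 to 0.59 for Mef2a and 0.32 to 0.56 for Tcf12. It was -0.92 to -0.62 for Tcf4, 0.13 to 0.32 for Mef2d and -0.32 to -0.023 for Tcf3. A lone sample is then assumed to vary like the other group.

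The replicate block gave 1806 higher and 1864 lower genes, with 3 of the factors higher and 1 lower, and changed no call of theirs. The correlation of same-numbered deviations was -0.034, which gives no sign that the numbers pair the samples, and whether sham and tenotomy tubes came from the same mice is not given in the labels.

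In UMIs per tube, where 62% of all genes tested were higher and 4.58% lower, 9 of 13 MEF2 regulators were higher and 0 lower, 7 of 15 bHLH inhibitors higher and 2 lower, 15 of 22 cofactors higher and 0 lower, and 3 of 7 PAX3 and PAX7 targets higher and 0 lower. With offsets for abundance 21.3% of all genes were higher and 21.8% lower. Of 13 MEF2 regulators 2 were then higher and 1 lower, and of 15 bHLH inhibitors 4 were higher and 5 lower.

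The depth, at most 483528 UMIs, limits Myf6 and Pax3, with 36 and 16 UMIs in all.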
